A study of Mus musculus with 36 samples.

Results

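The genes described here are 40 interferon-stimulated genes, taken by symbol from the 49568 gene symbols of the count table. All 40 were found in the table, and all 40 were among the 18628 genes with enough counts to be tested. They were measured by RNA sequencing of the ligated left carotid artery of C57BL/6J (B6) and 129X1/SvJ (129X1) mice, the inbred strains that the study compared. Mice received vehicle (Veh, 2 mL/kg/day), the angiotensin receptor blocker valsartan (Val, 27 mg/kg/day) or, at 60 mg/kg/day, sacubitril/valsartan (Sac/val), which adds a neprilysin inhibitor to valsartan. A prophylactic schedule (P) ran for 16 days from 2 days before carotid ligation, and a therapeutic schedule (T) for 7 days from day 7 after it. The tissue was collected on day 14 after ligation. Each of the 12 combinations of strain, treatment and schedule had 3 mice, 36 libraries in all, and every mouse had its carotid ligated, so the groups hold no unligated artery. Replicate numbers used below name libraries in the order of animal numbers within a group.

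Type I interferons bind a receptor that activates the kinases Jak1 and Tyk2. Type I interferon then assembles a complex of transcription factors, Stat2 and Irf9 among them, that binds the interferon-stimulated response element in the promoters of its target genes. Those targets include sensors of foreign RNA, enzymes that degrade RNA or stop translation, proteins that block virus entry, copying and release, and the factors of the pathway itself, so that the response can raise its own components. In the vessel wall such genes are expressed by macrophages, endothelium, smooth muscle and fibroblasts, which a whole-artery library mixes. In such bulk libraries, fewer cells of a type and less RNA per cell cannot be told apart.

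The letters of the response element were searched for in the promoters of the 40 genes. RefSeq promoter windows on GRCm38.p6, from 250 bases before to 50 bases after the start site, were given for 29 of the 40 genes. The core of the response element, spelled GAAANNGAA or TTCNNTTTC on the opposite strand, occurred in the windows of 16 of these 29 genes (55.2%). It occurred in 9.76% of the 27025 genes with a window. The spelling shifted by 1 base, AAANNGAAA or TTTCNNTTT, can overlap it, and occurred in 18 of 29 against 12.1% of genes. The GAS element, TTCNNNGAA, which reads the same on both strands, occurred in 6 of 29 against 9.55% of genes. A match is a description of the letters and does not show a site in use.

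The 160 bases just before the start site are printed 5′ to 3′ for 5 genes, with every GAAANNGAA or TTCNNTTTC match in capitals, because they include the genes whose strains separated best (Bst2, Rsad2), the genes that name the family (Isg15, Ifit1) and the gene that ran against it (Xaf1).
Isg15: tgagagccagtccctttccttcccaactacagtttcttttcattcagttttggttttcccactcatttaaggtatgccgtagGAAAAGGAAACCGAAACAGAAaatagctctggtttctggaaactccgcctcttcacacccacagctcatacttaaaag
Bst2: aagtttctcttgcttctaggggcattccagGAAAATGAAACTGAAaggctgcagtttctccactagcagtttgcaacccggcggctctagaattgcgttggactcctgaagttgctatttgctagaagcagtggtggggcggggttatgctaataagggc
Rsad2: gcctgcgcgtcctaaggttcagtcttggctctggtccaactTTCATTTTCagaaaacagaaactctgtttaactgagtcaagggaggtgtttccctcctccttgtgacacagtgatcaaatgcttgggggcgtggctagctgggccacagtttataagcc
Ifit1: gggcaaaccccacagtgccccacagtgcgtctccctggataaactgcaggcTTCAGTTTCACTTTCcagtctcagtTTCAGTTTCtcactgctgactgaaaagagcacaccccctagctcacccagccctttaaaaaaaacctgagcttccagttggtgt
Xaf1: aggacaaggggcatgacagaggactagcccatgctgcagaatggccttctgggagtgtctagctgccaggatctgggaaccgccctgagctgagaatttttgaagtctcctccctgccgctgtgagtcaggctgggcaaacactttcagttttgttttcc

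The stretches lie at chr4:156200819-156200978, minus strand for Isg15, chr8:71537473-71537632, minus strand for Bst2, chr12:26456453-26456612, minus strand for Rsad2, chr19:34640729-34640888, plus strand for Ifit1 and chr11:72301469-72301628, plus strand for Xaf1. Isg15 held 3 overlapping matches that begin 78, 72 and 66 bases before the start site. Bst2 held 2 matches, at 130 and 124 bases, and Ifit1 held 3, the nearest at 84 bases, spelled on the opposite strand. Rsad2 held 1 match, at 119 bases. The window of Xaf1 held no match to GAAANNGAA and 1 to the shifted spelling. Of the 24 genes with a window that were lower in 129X1 in the test below, 14 held a match. The other genes with a match, Eif2ak2 and Ifi44, did not pass that test. Eif2ak2 held 2, both after its start site, and Ifi44 held 1, beginning 3 bases before it.

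Library totals ran from 18962081 to 28967579 counts, with a median of 22784812. Levels are given in CPM, counts scaled by TMM to a common library size, and a log2 difference is the edgeR estimate, 129X1 minus B6 for strain. Adjusted p-values are from edgeR's quasi-likelihood test with Benjamini-Hochberg adjustment over the 18628 genes, called at 0.05. Genes of neighbouring tissues were detected in part of the libraries. Rag1, a gene of developing lymphocytes in the thymus, was at or above 10 CPM in 16 of the 36 libraries, 12 of them 129X1 and 4 B6. Smooth muscle markers, which define the labelled tissue, had a summed level over 10 genes in every library, from 711 to 4503 CPM.

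The strain of the mouse divided this gene group. Averaged over the 6 combinations of treatment and schedule, 33 of the 40 genes were lower and 2 were higher in 129X1 arteries than in B6 arteries by edgeR. Of all 18628 genes, 33.8% were called in this comparison, 17.5% lower and 16.3% higher. The 40 genes were chosen with earlier results of these data known, so their excess over all genes is not an independent test. The median log2 difference of the 40 genes was -1.10, beside -0.02 over all genes. Of the 40, 38 had a negative estimate and 2 a positive one. The genes that did not pass were Herc6 (-0.34), Ifi44 (-0.55), Helz2 (-0.26), Ifi27l2a (-0.25) and Eif2ak2 (-0.09).

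**Figure D1:**
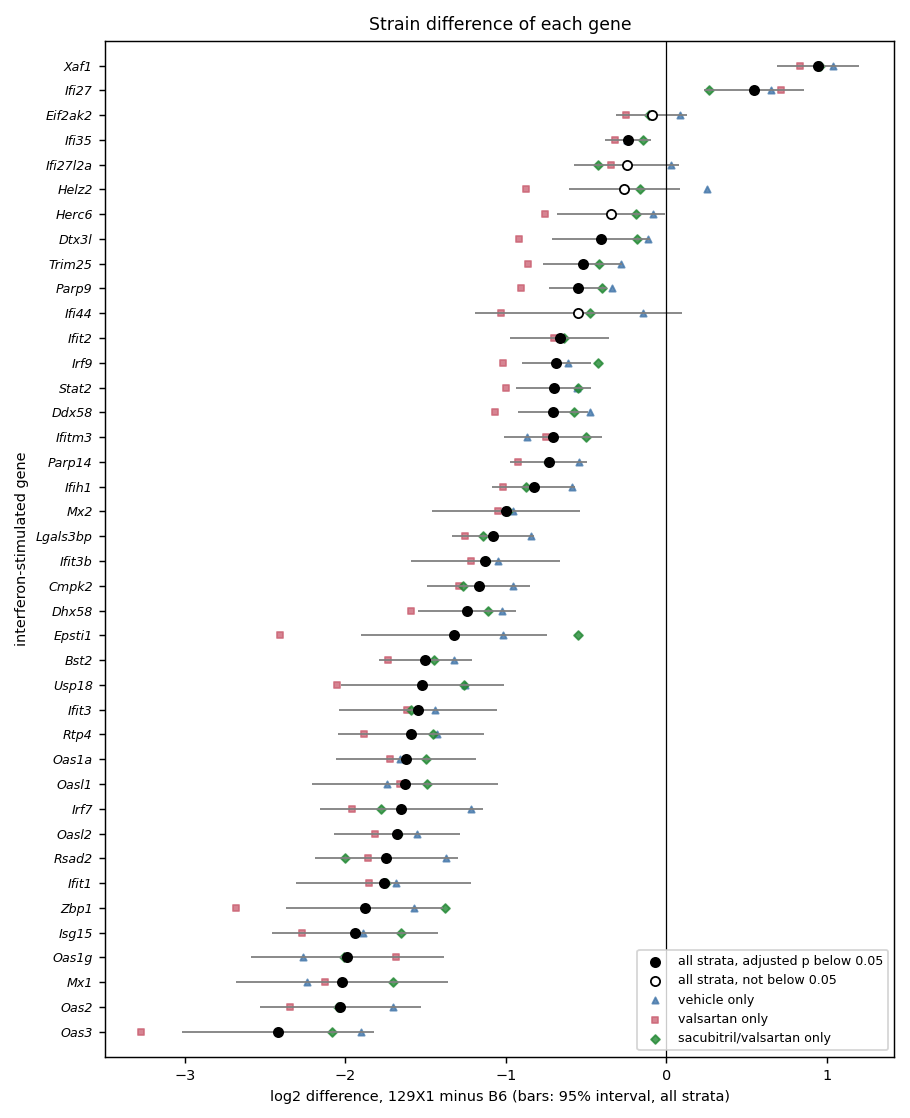
Log2 difference between strains (horizontal axis, 129X1 minus B6) for each of the 40 genes. Circles are the estimates over all 36 libraries with 95% intervals, filled where the adjusted p was below 0.05, and small symbols are the estimates within vehicle, valsartan and sacubitril/valsartan libraries. Of the 40 circles, 38 lie left of 0, with Oas3 farthest at -2.42, and Xaf1 and Ifi27 lie to the right at 0.94 and 0.54.

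Among the sensors of nucleic acids, 4 of 5 were lower in 129X1. Dhx58, which encodes the RIG-I-like regulator LGP2, was at 10.3 to 29.1, median 14.8 CPM in the 18 B6 libraries and at 5.64 to 10.9, median 7.28 CPM in the 18 129X1 libraries. The ranges overlapped slightly, with most B6 libraries above every 129X1 library. On the log2 scale the strains differed by -1.24 (SE 0.15, adjusted p = 2.69e-07). Zbp1, a sensor of Z-form nucleic acids that can trigger cell death, was at 8.81 to 39.8, median 19.4 CPM in the 18 B6 libraries and at 1.97 to 14.3, median 5.28 CPM in the 18 129X1 libraries. The highest 129X1 libraries lay within the lower part of the B6 range. The log2 difference of Zbp1 was -1.88 (SE 0.24, adjusted p = 6.82e-07). Ddx58, which encodes the RNA sensor RIG-I, was lower by a smaller margin (-0.71), as was Ifih1, which encodes MDA5 (-0.83). Eif2ak2, the double-stranded RNA-activated kinase PKR, had a similar level in both strains, at 15.3 to 33.2, median 19.8 CPM in B6 and 17.3 to 30.6, median 19.9 CPM in 129X1. Its log2 difference was -0.09, with a 95% interval from -0.32 to 0.13.

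The oligoadenylate synthetase family, whose active members make the second messenger of RNase L from double-stranded RNA, was lower in all 6 genes, with a median log2 difference of -1.83. Its estimates ran from -1.62 for Oas1a to -2.42 for Oas3. Oasl2, a synthetase-like member, was at 30.4 to 118, median 62.8 CPM in the 18 B6 libraries and at 12.2 to 39.3, median 18.7 CPM in the 18 129X1 libraries. The ranges overlapped where the highest 129X1 libraries met the lowest B6 libraries. Its log2 difference was -1.68 (SE 0.19, adjusted p = 1.11e-07). Oas2 was at 12.4 to 57.2, median 21.9 CPM in the 18 B6 libraries and at 3.85 to 15.1, median 6.41 CPM in the 18 129X1 libraries. Only the highest 129X1 library exceeded the lowest B6 libraries. For Oas2 the strains differed on the log2 scale by -2.03 (SE 0.24, adjusted p = 2.85e-07). Oas3 was at 3.86 to 24.9, median 9.85 CPM in the 18 B6 libraries and at 0.344 to 6.07, median 1.76 CPM in the 18 129X1 libraries. A few of the highest 129X1 libraries overlapped the lowest B6 libraries. The log2 difference of Oas3 was -2.42 (SE 0.29, adjusted p = 2.97e-07). Oas1g (-1.99), Oas1a (-1.62) and Oasl1 (-1.63), a synthetase-like member known to restrain the translation of Irf7, were also lower. Oas1a and Oas1g are near copies of each other, and how the counting divided their shared reads is not given in the sources used here.

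Of the 7 genes of signalling and transcription, 6 were lower in 129X1. Irf7, the factor that amplifies type I interferon production, was at 19.3 to 129, median 43.8 CPM in B6 and at 9.08 to 29.4, median 16.8 CPM in 129X1. The B6 libraries reached far higher, while their lowest values lay within the 129X1 range. The log2 difference of Irf7 was -1.65 (SE 0.25, adjusted p = 9.72e-06). Stat2 (-0.70) and Irf9 (-0.69), both part of the complex that binds the response element, were lower by smaller amounts. The ADP-ribosyltransferase genes Parp14 (-0.73) and Parp9 (-0.55) and the ubiquitin ligase Dtx3l (-0.41), the partner protein of Parp9, were lower as well. Parp9 and Dtx3l share 458 exonic bases on opposite strands in GENCODE M21, and whether counting used strand is not given in the sources used here. The Dtx3l call was lost when any 1 of 11 libraries was left out, with adjusted p up to 0.0663. Helz2, a helicase and coactivator, did not pass.

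In the conjugation system of the ubiquitin-like modifier Isg15, 3 of 4 genes were lower in 129X1. Isg15 itself was at 7.14 to 47.7, median 20.4 CPM in B6 and at 2.58 to 10.0, median 5.22 CPM in 129X1. The strains overlapped only between the lowest B6 and the highest 129X1 libraries. The log2 difference was -1.94 (SE 0.25, adjusted p = 1.00e-06). Usp18, the protease that removes Isg15 and restrains the interferon receptor, was lower (-1.52), and so was Trim25, a ubiquitin ligase acting on RIG-I (-0.52). Herc6, a ligase for Isg15 in mice, did not pass (-0.34, adjusted p = 0.108 by edgeR).

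All 10 genes grouped as antiviral effectors were lower in 129X1, with a median log2 difference of -1.34. Bst2, or tetherin, which holds budding virus particles on the cell surface, was at 44.3 to 135, median 71.2 CPM in the 18 B6 libraries and at 17.5 to 35.8, median 26.2 CPM in the 18 129X1 libraries. Every B6 library lay above every 129X1 library. The log2 difference was -1.50 (SE 0.14, adjusted p = 3.16e-09). Rsad2, or viperin, an enzyme that makes a chain-terminating nucleotide, was at 9.43 to 51.7, median 19.1 CPM in the 18 B6 libraries and at 3.28 to 8.55, median 6.27 CPM in the 18 129X1 libraries. The strains did not overlap here either. Its log2 difference was -1.75 (SE 0.22, adjusted p = 5.32e-07). Bst2 and Rsad2 were the only members whose 18 and 18 libraries separated completely in the lower direction, which 0.832% of all genes did. No member separated in the higher direction, which 1.18% of all genes did.

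The other effectors lower in 129X1 were the GTPase Mx1 (-2.02), its relative Mx2 (-1.0), which GENCODE M21 lists as a polymorphic pseudogene, the nucleotide kinase Cmpk2 (-1.17), which neighbours Rsad2 on chromosome 12, and Ifitm3 (-0.71), which blocks fusion of virus with endosomes. The RNA-binding Ifit proteins were lower in the order Ifit1 (-1.76), Ifit3 (-1.55), Ifit3b (-1.13) and Ifit2 (-0.66). Ifit3 and Ifit3b are close paralogues that may share reads.

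The 8 remaining induced genes went in both directions, with 4 lower and 2 higher in 129X1. Lgals3bp, a secreted glycoprotein that binds galectins, was at 110.4 to 342, median 189.5 CPM in the 18 B6 libraries and at 72.7 to 133, median 93.1 CPM in the 18 129X1 libraries. The ranges overlapped between the highest 129X1 and the lowest B6 values. The log2 difference was -1.08 (SE 0.13, adjusted p = 1.64e-07). Rtp4, a receptor-transporting protein, was lower (-1.59), as were Epsti1 (-1.33) and, slightly, Ifi35 (-0.24). Ifi44 and Ifi27l2a did not pass.

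Xaf1, which encodes a protein that antagonises the apoptosis inhibitor XIAP, ran against the group. It was at 17.2 to 41.8, median 27.4 CPM in the 18 B6 libraries and at 37.9 to 83.0, median 50.02 CPM in the 18 129X1 libraries. The strains overlapped only where the highest B6 libraries exceeded the lowest 129X1 libraries. On the log2 scale Xaf1 differed by 0.94 (SE 0.12, adjusted p = 1.26e-06). Xaf1 lies on chromosome 11 at 72301629 to 72313733 (GRCm38, GENCODE M21, plus strand), and none of its exonic bases was shared with another gene there. Scaled to exonic length, its mean level stood at position 28 of the 40 genes in B6 (5.83 CPM per kb) and at position 7 in 129X1 (11.2 CPM per kb).

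Ifi27, a small mitochondrial protein gene, was the other member higher in 129X1. It was at 177.9 to 749.9, median 397 CPM in B6 and at 414 to 907, median 577 CPM in 129X1, with wide overlap of the strains. The log2 difference was 0.54 (SE 0.15, adjusted p = 0.00671). This call was lost with 3 scores for neighbouring tissues as covariates, with a macrophage score as covariate, and without the 16 Rag1-rich libraries. Over the alternatives its adjusted p by edgeR or DESeq2 reached 0.988. Its paralogue Ifi27l2a, which neighbours it on chromosome 12 and may share reads with it, was the most abundant member per length in both strains, at 622 CPM per kb in B6 and 525 CPM per kb in 129X1. The log2 difference of Ifi27l2a was -0.25 (SE 0.16, adjusted p = 0.242).

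**Figure D2:**
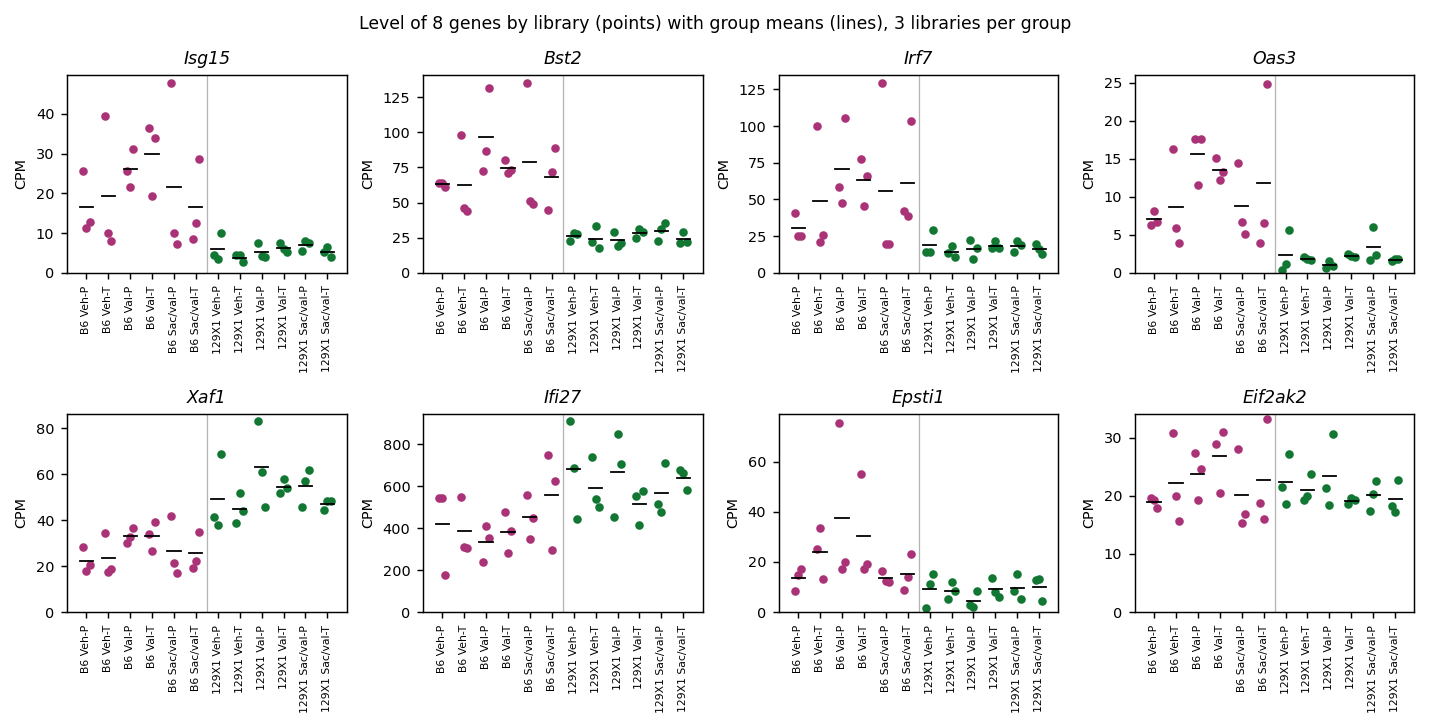
CPM (vertical axis, from 0) of 8 genes in each library, by group of 3, with group means as lines and B6 groups left of the grey line. Isg15, Bst2, Irf7 and Oas3 are higher in B6 with wide scatter inside B6 groups, Xaf1 is higher in 129X1, Ifi27 and Eif2ak2 overlap widely, and Epsti1 is highest in a single B6 Val-P library at 75.3 CPM.

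Within vehicle-treated mice alone (6 against 6), 20 genes were lower and Xaf1 was higher in 129X1, while 13.5% of all genes were called, 6.52% lower and 7.02% higher. Bst2 was at 44.3 to 97.8, median 62.6 CPM in B6 and 17.5 to 33.0, median 25.1 CPM in 129X1, without overlap, with a log2 difference of -1.32 (SE 0.24, adjusted p = 0.000451). Xaf1 was at 17.4 to 34.4, median 19.6 CPM in B6 and 37.9 to 68.7, median 42.8 CPM in 129X1, also without overlap, with a log2 difference of 1.04 (SE 0.22, adjusted p = 0.00166). The oligoadenylate synthetases lower in 129X1 under vehicle had log2 differences of Oas1a -1.66, Oas1g -2.27, Oas2 -1.70, Oas3 -1.91, Oasl1 -1.74 and Oasl2 -1.55. The effectors that passed were Ifit1 -1.68, Ifit3 -1.44, Rsad2 -1.37, Cmpk2 -0.95, Mx1 -2.24, Bst2 -1.32 and Ifitm3 -0.87. The remaining genes that passed were Dhx58 -1.03, Zbp1 -1.58, Irf9 -0.61, Isg15 -1.89, Usp18 -1.26, Rtp4 -1.43 and Lgals3bp -0.85. Libraries of the strains did not overlap for 4 lower genes and Xaf1, beside 4.8% of all genes lower and 3.29% higher.

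Under valsartan 31 genes were lower and Xaf1 was higher in 129X1, and 20.9% of all genes were called, 9.61% lower and 11.3% higher. Zbp1 was at 20.2 to 39.8, median 33.9 CPM in B6 and 1.97 to 9.55, median 4.52 CPM in 129X1, a log2 difference of -2.68 (SE 0.42, adjusted p = 5.93e-05). Oas3 had the log2 difference farthest from 0 of any member here, -3.27 (SE 0.52, adjusted p = 6.82e-05). The strains did not overlap for either gene. The sensors that passed were Ddx58 -1.07, Ifih1 -1.02, Dhx58 -1.59 and Zbp1 -2.68, and the synthetases were Oas1a -1.72, Oas1g -1.69, Oas2 -2.35, Oas3 -3.27, Oasl1 -1.66 and Oasl2 -1.82. All 7 signalling genes passed, with Stat2 -0.999, Irf9 -1.02, Irf7 -1.96, Helz2 -0.87, Parp9 -0.91, Dtx3l -0.92 and Parp14 -0.92. The Isg15 system gave Isg15 -2.27, Usp18 -2.05 and Trim25 -0.86. The effectors gave Ifit1 -1.85, Ifit3 -1.61, Ifit3b -1.22, Rsad2 -1.86, Cmpk2 -1.29, Mx1 -2.13, Bst2 -1.74 and Ifitm3 -0.75, and the other induced genes Rtp4 -1.89, Lgals3bp -1.26 and Epsti1 -2.41. Xaf1 differed by 0.83 (SE 0.21, adjusted p = 0.00792). In these 12 libraries 30 of the 40 genes separated completely with B6 above 129X1, and Xaf1 with 129X1 above B6, beside 3.02% and 5.44% of all genes.

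Under sacubitril/valsartan 18 genes were lower and Xaf1 was higher in 129X1, where 6.26% of all genes were called, 3.18% lower and 3.08% higher. Rsad2 was at 10.5 to 46.1, median 20.4 CPM in B6 and 3.28 to 8.23, median 5.99 CPM in 129X1, with no overlap and a log2 difference of -2.00 (SE 0.38, adjusted p = 0.000746). Bst2 differed by -1.45 (SE 0.24, adjusted p = 0.000159) and Xaf1 by 0.96 (SE 0.21, adjusted p = 0.00432). The synthetases that passed were Oas1a -1.50, Oas1g -2.01, Oas2 -2.05, Oas3 -2.08 and Oasl2 -1.67, and the sensors Ifih1 -0.87, Dhx58 -1.11 and Zbp1 -1.38. The other effectors that passed were Ifit1 -1.75, Ifit3 -1.59 and Cmpk2 -1.26. The remaining genes were Irf7 -1.78, Parp14 -0.74, Isg15 -1.66, Rtp4 -1.46 and Lgals3bp -1.14. The libraries separated completely for 9 lower genes and Xaf1, beside 2.98% and 2.85% of all genes.

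In all, 16 genes passed in all 3 treatments, 8 in 2, 8 in 1 and 8 in none. Across the 3 treatments the estimate was negative in each for 35 genes, positive in each for Xaf1 and Ifi27, and mixed for 3. The counts within a treatment leaned on single B6 libraries. Under vehicle 9 genes were called without replicate 1 of the B6 Veh-T group, in place of 21. Under sacubitril/valsartan 9 were called without replicate 1 of B6 Sac/val-P, and 9 without replicate 3 of B6 Sac/val-T, in place of 19. Averaged over all strata, leaving out any 1 of the 36 libraries gave 34 to 36 called genes.

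Markers of some other cells moved with strain. Over all genes 33.8% were called, 17.5% lower and 16.3% higher. Of 14 macrophage markers 9 were lower in 129X1, and their summed level was 956 to 7439 CPM (median 4813) in B6 and 967 to 4619 CPM (median 2678) in 129X1. Of 9 neutrophil markers tested 6 were lower, with sums of 17.0 to 398 CPM in B6 and 5.21 to 90.6 CPM in 129X1. Of 6 markers of plasmacytoid dendritic cells, which are known for making type I interferon, Lair1 was lower and Klk1 higher. The defining marker Siglech was not called (0.63, adjusted p = 0.112 by edgeR). Of the 6 estimates 5 were positive. The summed level was 26.2 to 462 CPM (median 60.1) in B6 and 35.8 to 217 CPM (median 132) in 129X1. B cell and fat markers went the other way, with 6 of 8 B and plasma cell markers and 6 of 8 adipocyte markers higher in 129X1, while 5 of 8 Schwann cell markers were lower. Of the markers of T and natural killer cells 1 of 11 was called, lower, but 8 of 11 estimates were positive. Their summed medians were 24.3 CPM in B6 and 323 CPM in 129X1. Of thymocyte markers 1 of 8 was called, higher, and 8 of 8 estimates were positive, with summed medians of 28.0 and 440 CPM. These sums overlapped widely between strains. Of endothelium 1 of 9 was lower and of fibroblasts 2 of 8 were lower. Smooth muscle had 2 higher and 1 lower of 10, thyroid 2 lower of 8, skeletal muscle 1 higher of 9 and sympathetic neurons 0 of 8. From endothelium to sympathetic neurons, no list had a larger share called than all genes. The same held for T and natural killer cells, thymocytes and plasmacytoid dendritic cells. No marker of any list named here was at 0 in all libraries. With a macrophage score as a covariate, 31 interferon-stimulated genes were still lower and 1 higher over all strata, with a median of -0.998. In that fit 22.8% of all genes were called. The covariate left 11 of 40 called under vehicle (7.64% of all genes), 31 under valsartan (28.4%) and 14 under sacubitril/valsartan (5.38%).

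The 16 Rag1-rich libraries were unequal between strains, so the comparison was repeated in the 20 others. None of these was from 129X1 Val-T, so means over strata left out the Val-T comparison. There 31 genes were lower and 1 was higher in 129X1 over all strata, with a median of -1.25, and 20.3% of all genes were called. Within treatments few 129X1 libraries then remained, and 2 of 40 genes (5%) were called under vehicle, 5 (12.5%) under valsartan and 1 (2.5%) under sacubitril/valsartan. Of all genes 3.81%, 4.18% and 3.23% were called in those fits, so the shares under vehicle and sacubitril/valsartan are near the background. The median log2 differences there were -1.40, -1.41 and -1.07, beside -0.96, -1.24 and -1.05 with all libraries. Under vehicle, B6 Veh-T then held only replicate 1, where 39 of the 40 genes lay above the B6 median. Under valsartan only the prophylactic schedule was compared. With 3 tissue scores as covariates, 32 of 40 genes were called over all strata (13.5% of all genes), 10 under vehicle (5.05%), 28 under valsartan (13.6%) and 12 under sacubitril/valsartan (5.29%). Of the 33 genes lower over all strata, Ifitm3, Ifi35, Ifit2, Ifit3b and Dtx3l lost their call in at least 1 of these or the other alternatives, and no estimate of any of the 40 genes over all strata changed sign.

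**Figure D3:**
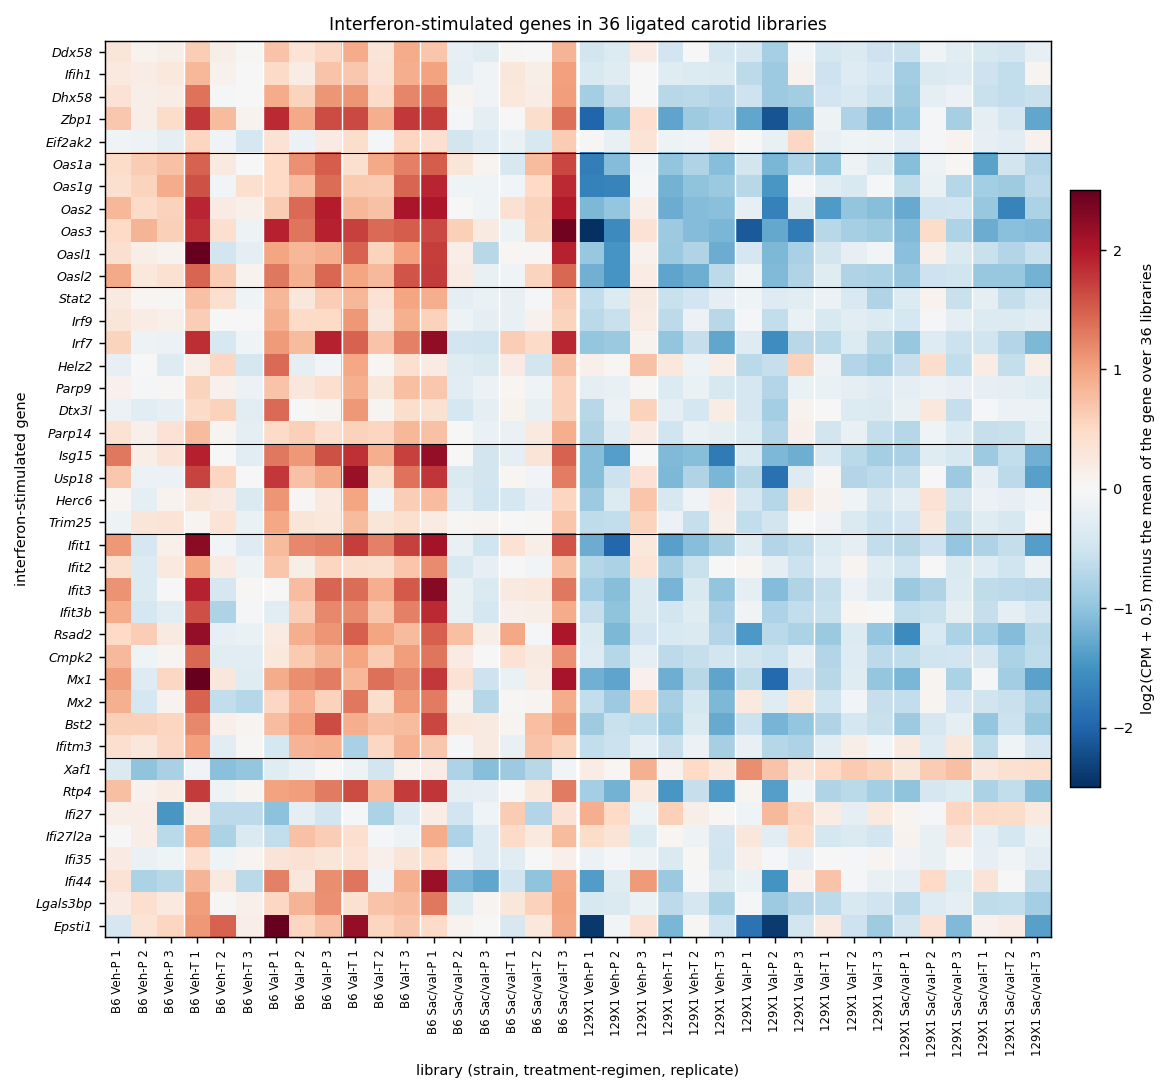
Level of the 40 genes (rows, by role) in 36 libraries (columns, by strain, treatment-schedule and replicate), as log2(CPM + 0.5) minus the mean of the gene over all libraries, red above and blue below it. Most rows turn from red in B6 to blue in 129X1, Xaf1 and Ifi27 turn the other way, and B6 columns differ from each other within a group.

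The genes also differed among mice of a group, and more so in B6. The within-group standard deviation of log2 CPM was larger in B6 for 36 of the 40 genes, with medians of 0.62 in B6 and 0.41 in 129X1. Among all genes 62.7% were more variable in B6, with medians of 0.47 and 0.39. The exceptions were Zbp1, Oas3, Trim25 and Epsti1. The ratio was widest for Cmpk2, with 0.61 in B6 and 0.19 in 129X1. No test was made of this difference.

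The members tended to be high in the same B6 libraries. All 40 genes lay above their B6 median in replicate 3 of Sac/val-T, 39 in replicate 1 of Veh-T and 38 in replicate 1 of Sac/val-P. None did in replicate 3 of Veh-T or replicate 2 of Sac/val-P, and 1 in replicate 3 of Sac/val-P. High and low libraries thus stood side by side within these vehicle and sacubitril/valsartan groups. Irf7 was at 99.99, 20.8 and 25.6 CPM in the B6 Veh-T replicates 1 to 3 and at 129, 19.7 and 19.3 CPM in those of B6 Sac/val-P. Ifit3 was at 94.5, 18.3 and 25.2 CPM and 122, 21.7 and 19.1 CPM in the same libraries. In each of those groups replicate 1, the lowest animal number of its group, was high and the other replicates were low. In B6 Sac/val-T the high library, replicate 3, had the highest animal number of its group. Whether the order of animals had a part in this was not tested.

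Valsartan-treated B6 mice showed less of this split. Between 26 and 38 of the 40 genes lay above the B6 median in each of their 6 libraries. Among these, replicate 1 of Val-P had 1591 CPM and replicate 1 of Val-T 869.5 CPM of Rag1. Isg15 was at 25.6, 21.6 and 31.1 CPM in B6 Val-P and 36.5, 19.2 and 33.9 CPM in B6 Val-T, against 25.6, 11.2 and 12.7 CPM in B6 Veh-P and 39.6, 10.1 and 8.06 CPM in B6 Veh-T. Among vehicle libraries, replicate 1 of Veh-P lay within the valsartan range, replicate 1 of Veh-T lay above it, and the others lay below it. The summed macrophage markers did not follow this order. They were at 3037 CPM in replicate 1 of B6 Sac/val-P, where 15 members had their highest B6 level, and at 7439 CPM in replicate 2 of B6 Veh-P, where 3 of 40 lay above the B6 median.

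**Figure D4:**
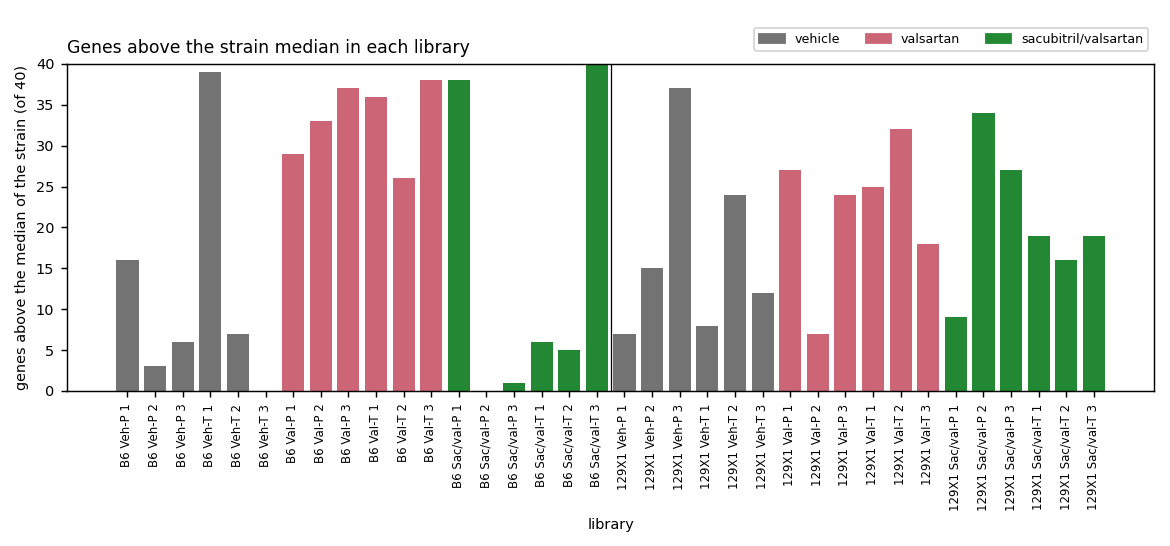
Number of the 40 genes above the median of their own strain (vertical axis, 0 to 40) in each library, coloured by treatment. In B6, the 6 valsartan libraries, replicate 1 of Veh-T, replicate 1 of Sac/val-P and replicate 3 of Sac/val-T stand at 26 or more, and the other B6 libraries at 16 or fewer.

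Xaf1, although lower in B6, was high in the same B6 libraries as the rest. It reached 41.8 CPM in replicate 1 of B6 Sac/val-P, against 21.2 and 17.2 CPM in the others, and 34.4 CPM in replicate 1 of B6 Veh-T, against 17.4 and 18.6 CPM. In 129X1, replicate 3 of Veh-P held the highest 129X1 level of 23 of the 40 genes and had 559 CPM of Rag1. Some members were highest in B6 where thymus transcripts were. Replicate 1 of B6 Val-P, with 1591 CPM of Rag1, held the B6 maximum of 6 genes, among them Epsti1 at 75.3 CPM, Dtx3l at 78.7 CPM, Helz2 at 163.1 CPM and Trim25 at 141.9 CPM. The part of thymus RNA in these values was not tested.

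No member passed the test for either drug. For valsartan against vehicle (12 against 12 libraries over both strains and schedules), edgeR called 0 of 40 genes and 0.0% of all 18628. DESeq2 called 0 members too. At an unadjusted p under 0.05 there were 3 of 40 members, beside 2.43% of all genes. These were Xaf1, with a log2 difference of 0.42 (SE 0.15, unadjusted p = 0.00933, adjusted p = 0.986), Ifi35 with 0.21 (SE 0.08, unadjusted p = 0.0228, adjusted p = 0.986) and Irf9 with 0.29 (SE 0.13, unadjusted p = 0.0277, adjusted p = 0.986). The 40 estimates leaned upward: 38 were positive and 2, Rsad2 and Ifi27, negative, with a median of 0.21. Over all genes 57.6% were positive and the median was 0.03. With 1 library left out the median of the members ran from 0.16 to 0.36, the highest without replicate 1 of B6 Veh-T and the next, 0.33, without replicate 3 of 129X1 Veh-P. It was 0.14 without the Rag1-rich libraries, where the 129X1 therapeutic comparison was left out. The 95% interval of a member had a median half-width of 0.42.

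For sacubitril/valsartan against the same vehicle libraries, edgeR called 0 members and 0.0% of all genes, 0 members had an unadjusted p under 0.05, as 1.57% of all genes did, and DESeq2 called 0 members. The median of the 40 was 0.08, with 29 positive estimates. It turned to -0.12 without replicate 1 of B6 Sac/val-P, to -0.03 without replicate 3 of B6 Sac/val-T and to -0.04 without the Rag1-rich libraries. The smallest p-values belonged to Irf7, 0.33 (SE 0.30, unadjusted p = 0.278, adjusted p = 1.000), Oas1g, 0.38 (SE 0.35, unadjusted p = 0.287, adjusted p = 1.000), and Oas1a, 0.26 (SE 0.25, unadjusted p = 0.314, adjusted p = 1.000). For Irf7 the 95% interval ran from -0.28 to 0.94, which holds 0 and also a difference nearly as large as 1 log2 unit.

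Between the drugs, the contrast that sets sacubitril/valsartan against valsartan alone, the median of the 40 genes was -0.16 and 34 estimates were negative. The median was -0.29 without replicate 1, -0.09 without replicate 2 and -0.08 without replicate 3 of B6 Sac/val-P, -0.25 without replicate 3 of B6 Sac/val-T, and -0.08 without the Rag1-rich libraries. By edgeR 0 members and 0.0% of all genes were called, 2 members had an unadjusted p under 0.05, and DESeq2 called 0 members. The share of all genes under that unadjusted p was counted only for each drug against vehicle over both strains and schedules. Such counts of members in this and later contrasts therefore have no background beside them. The smallest p-values were those of Ifi35, -0.21 (SE 0.08, unadjusted p = 0.0217, adjusted p = 0.908), Irf9, -0.27 (SE 0.13, unadjusted p = 0.0434, adjusted p = 0.908), and Xaf1, -0.27 (SE 0.15, unadjusted p = 0.0800, adjusted p = 0.908). The contrasts share libraries, so their estimates are not independent of each other. Compounds are compared here at the labelled doses, 27 mg/kg/day for valsartan and 60 mg/kg/day for the combination as a whole. The label of the combination does not give its valsartan part.

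**Figure D5:**
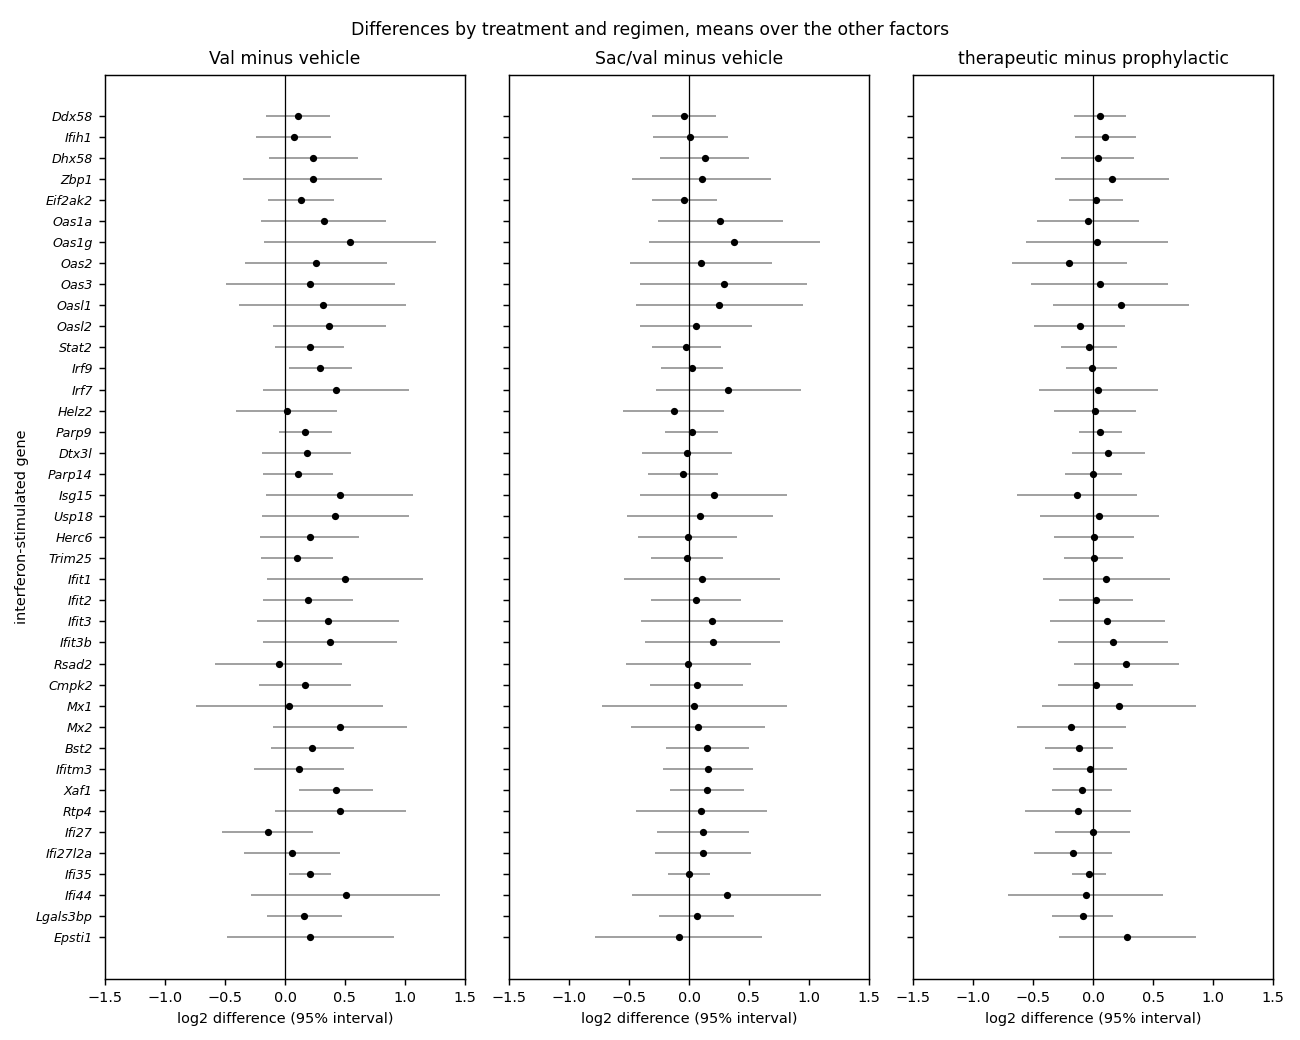
Log2 difference of each of the 40 genes (points) with its 95% interval (bars) for valsartan minus vehicle, sacubitril/valsartan minus vehicle, and therapeutic minus prophylactic schedule. Most valsartan estimates lie right of 0 (38 of 40, median 0.21), those of the other contrasts lie around 0 (medians 0.08 and 0.02), and no gene passed the adjusted threshold.

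Within each strain and schedule (3 against 3), 12 drug contrasts likewise called 0 members and 0.0% of all genes by edgeR, and DESeq2 called 0 members. For valsartan against vehicle in B6, 39 of the 40 estimates were positive in the prophylactic groups, with a median of 0.54, and 36 in the therapeutic groups, with a median of 0.37. With 1 library left out the prophylactic median ran from 0.44 to 0.65, and it was 0.60 without the Rag1-rich libraries. The therapeutic median was less stable, at 0.82 without replicate 1, 0.20 without replicate 2 and 0.11 without replicate 3 of B6 Veh-T. It turned to -0.38 without the Rag1-rich libraries, where B6 Veh-T held only replicate 1, its library with high levels of these genes. In B6 prophylactic libraries 4 members had an unadjusted p under 0.05, led by Dtx3l, 0.87 (SE 0.37, unadjusted p = 0.0243, adjusted p = 0.474), Epsti1, 1.47 (SE 0.69, unadjusted p = 0.0433, adjusted p = 0.474), and Ifi35, 0.36 (SE 0.17, unadjusted p = 0.0461, adjusted p = 0.474). Dtx3l and Epsti1 were highest in the thymus-rich replicate described above. In B6 therapeutic libraries there were 2 such members, and the smallest p-values were those of Irf9, 0.57 (SE 0.25, unadjusted p = 0.0341, adjusted p = 1.0), Parp9, 0.46 (SE 0.21, unadjusted p = 0.0405, adjusted p = 1.0), and Ddx58, 0.46 (SE 0.26, unadjusted p = 0.0885, adjusted p = 1.0). Irf9, Parp9 and Ddx58 had their highest B6 level in replicate 1 of B6 Val-T, with 869.5 CPM of Rag1.

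In 129X1 the same contrast had medians of -0.13 in prophylactic and 0.26 in therapeutic groups, with 0 members under an unadjusted p of 0.05 in either. The prophylactic median turned to 0.24 without replicate 3 of 129X1 Veh-P, to 0.01 without replicate 2 of 129X1 Val-P and to 0.22 without the Rag1-rich libraries. The last used replicate 1 of 129X1 Veh-P alone. The smallest p-values were those of Zbp1 (-1.06), Oas3 (-1.25) and Epsti1 (-1.10) on the prophylactic schedule and of Oas1g (1.22), Ifi35 (0.27) and Helz2 (-0.65) on the therapeutic one. The median half-width of the intervals within a stratum ran from 0.83 to 0.84 on the log2 scale across the 12 contrasts.

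Sacubitril/valsartan against vehicle had medians of 0.25 in B6 prophylactic, -0.01 in B6 therapeutic, -0.05 in 129X1 prophylactic and 0.10 in 129X1 therapeutic groups, with 0 members under an unadjusted p of 0.05 in any of them. The smallest p-values in B6 were those of Ifi44 (1.17), Irf7 (0.89) and Ifit3 (0.72) on the prophylactic schedule and of Ifi27 (0.52), Ifi27l2a (0.44) and Mx1 (-0.79) on the therapeutic one. In 129X1 they were those of Ifitm3 (0.55), Helz2 (-0.51) and Oas1a (0.53) and of Zbp1 (0.44), Rsad2 (-0.40) and Isg15 (0.44). These medians turned on single libraries. The B6 prophylactic median was -0.39 without replicate 1 of B6 Sac/val-P and 0.53 without its replicate 3. The B6 therapeutic median was -0.41 without replicate 3 of B6 Sac/val-T and 0.55 without replicate 1 of B6 Veh-T, and -0.62 without the Rag1-rich libraries. The last set B6 Sac/val-T against replicate 1 of B6 Veh-T alone. The 129X1 prophylactic median turned to 0.37 without replicate 3 of 129X1 Veh-P, to 0.07 without replicate 1 and 0.03 without replicate 3 of 129X1 Sac/val-P, and to 0.43 without the Rag1-rich libraries. The 129X1 therapeutic median was -0.11 without the Rag1-rich libraries. In that setting each 129X1 vehicle and sacubitril/valsartan group held 1 library.

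Sacubitril/valsartan against valsartan had medians of -0.30 in both B6 schedules, 0.10 in 129X1 prophylactic and -0.13 in 129X1 therapeutic groups. The B6 prophylactic median was -0.96 without replicate 1, -0.08 without replicate 2 and -0.06 without replicate 3 of B6 Sac/val-P, and -0.19 without replicate 3 of B6 Val-P. The B6 therapeutic median was -0.75 without replicate 3 and -0.17 without replicate 1 of B6 Sac/val-T. The 129X1 prophylactic median turned to -0.06 without replicate 2 of 129X1 Val-P and to -0.05 without replicate 2 of 129X1 Sac/val-P, and the 129X1 therapeutic median was -0.04 without replicate 2 of 129X1 Val-T. The smallest p-values were those of Epsti1 (-1.47), Irf9 (-0.51) and Dtx3l (-0.72) in B6 prophylactic libraries and of Irf9 (-0.61), Parp9 (-0.46) and Stat2 (-0.58) in B6 therapeutic ones. They were those of Oas3 (1.75), Zbp1 (1.02) and Ifitm3 (0.63) in 129X1 prophylactic and of Helz2 (0.49), Oas1g (-0.83) and Ifi35 (-0.19) in 129X1 therapeutic libraries. At an unadjusted p under 0.05 there were 1, 3, 1 and 0 members in that order of groups.

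The dosing schedule gave no called member. Therapeutic minus prophylactic (18 against 18), edgeR called 0 members and 0.0% of all genes, 0 members had an unadjusted p under 0.05, and DESeq2 called 0 members. The median was 0.02, with 24 positive and 16 negative estimates. It ran from -0.07 without replicate 1 of B6 Veh-T to 0.10 without replicate 1 of B6 Sac/val-P, turning sign without any 1 of 8 libraries, and was 0.23 without the Rag1-rich libraries. The median half-width of the 95% intervals was 0.34. The smallest p-values belonged to Rsad2, 0.28 (SE 0.21, unadjusted p = 0.202, adjusted p = 1.0), Ifi27l2a, -0.17 (SE 0.16, unadjusted p = 0.302, adjusted p = 1.0), and Epsti1, 0.28 (SE 0.28, unadjusted p = 0.317, adjusted p = 1.0). The schedules differ in both start and length of dosing, which cannot be told apart.

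Whether the strain difference itself depended on treatment was tested by interaction terms. For valsartan, the strain difference minus that under vehicle had a median of -0.41 over the 40 genes, with 35 negative, beside -0.01 over all genes. The median was -0.70 without replicate 1 of B6 Veh-T and -0.34 without the Rag1-rich libraries. The last covers the prophylactic schedule only. By edgeR 0 members and 0.0% of all genes were called, and by DESeq2 0 members. At an unadjusted p under 0.05 there were 4 members: Helz2, -1.12 (SE 0.41, unadjusted p = 0.0111, adjusted p = 0.633), Parp9, -0.57 (SE 0.21, unadjusted p = 0.0134, adjusted p = 0.633), Ddx58, -0.59 (SE 0.26, unadjusted p = 0.0317, adjusted p = 0.633), and Dtx3l, -0.80 (SE 0.36, unadjusted p = 0.0365, adjusted p = 0.633). The larger number of called genes under valsartan than under vehicle was thus not shown to be a difference in effect for any member.

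The other 4 interactions had 0 called members and 0.0% of all genes called by edgeR, 0 members under an unadjusted p of 0.05, and 0 called by DESeq2. For strain by sacubitril/valsartan the median was -0.08, and the smallest p-values were those of Rsad2 (-0.63), Ifi27l2a (-0.45) and Ifi27 (-0.38). For strain by schedule the median was -0.24, with Ifi27l2a (-0.56), Eif2ak2 (-0.34) and Rtp4 (-0.67). For sacubitril/valsartan by schedule it was -0.13, with Ifi27 (0.40), Ifit3b (-0.42) and Ifit3 (-0.43), and for valsartan by schedule 0.05, with Ifi27l2a (-0.35), Parp9 (0.19) and Oas3 (0.52). With 1 library left out, the medians ran from -0.37 to 0.24 for strain by sacubitril/valsartan, highest without replicate 1 of B6 Sac/val-P, and from -0.44 to -0.03 for strain by schedule, nearest 0 without replicate 1 of B6 Veh-T. They ran from -0.31 to 0.21 for sacubitril/valsartan by schedule, highest without replicate 1 of B6 Sac/val-P, and from -0.19 to 0.28 for valsartan by schedule, lowest without replicate 3 of 129X1 Veh-P. Without the Rag1-rich libraries the medians were 0.34, -0.42, -0.78 and -1.06 in that order. There strain by schedule left out valsartan, and valsartan by schedule covered B6 only. B6 Veh-T was replicate 1 alone in these fits.

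The interferon genes themselves were at or near 0 counts. Of 17 genes for interferons and inducing cytokines, 3 had enough counts to be tested, 6 had no count in any library, Ifnb1 reached at most 2 counts in a library and Ifng at most 4. Il12a and Il18, cytokines that induce interferon gamma, were higher in 129X1, at 1.62 (adjusted p = 0.000259) and 0.50 (adjusted p = 0.00109) by edgeR, and Il12b was not called (-0.83). Of 19 receptor and Jak-Stat genes 8 were lower in 129X1 and 0 higher, with smallest p-values for Irf1, -0.37 (adjusted p = 0.000132), Tyk2, -0.31 (adjusted p = 0.000323), Stat3, -0.35 (adjusted p = 0.000353), and Socs3, -1.01 (adjusted p = 0.000827). The receptor chains Ifnar1 (0.15) and Ifnar2 (-0.05) did not pass. Of 22 tested genes of nucleic acid sensing 14 were lower and 1, the adaptor Mavs, higher (0.28).

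The sensing genes with the smallest p-values by edgeR were Mb21d1, which encodes the DNA sensor cGAS, -0.87 (adjusted p = 3.92e-05), Ifi204, -0.96 (adjusted p = 0.000384), Tlr3, -0.43 (adjusted p = 0.000574), and Irf3, -0.36 (adjusted p = 0.000596). Of 60 further interferon-stimulated genes, also chosen with earlier results of these data known, 40 were lower in 129X1 and 1 higher. Their median was -0.47. The smallest p-values among them were those of Trim34a, -3.91 (adjusted p = 2.21e-14) by edgeR, and, in the other direction, Ifi44l. Ifi44l had a mean of 0.0183 CPM in B6 and 3.67 CPM in 129X1, the direction that Xaf1 also had. Trafd1, -0.62 (adjusted p = 1.13e-08), and Trim30a, -1.19 (adjusted p = 6.73e-07), followed. Of 23 genes led by interferon gamma 11 were lower and 1, Cxcl11, higher (0.46), with smallest p-values for the GTPases Irgm2, -1.62 (adjusted p = 1.38e-10), Irgm1, -0.88 (adjusted p = 2.31e-06), Gbp5, -0.79 (adjusted p = 6.14e-06), and Gbp2, -0.73 (adjusted p = 6.75e-06).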

How the data were processed

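RNA of 36 ligated left carotid arteries was sequenced from stranded mRNA libraries, per the labels' protocols. The authors deposited 1 table of counts per gene symbol. The submitters' processing notes name Trimmomatic 0.36, STAR 2.5.2b, featureCounts in Subread 1.5.0p3 and GRCm38, a genome built from a C57BL/6 mouse, and how that affects counts of 129X1 reads was not tested. Which annotation was counted, and whether by strand, is not given in the sources used here.

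From the counts, edgeR 4.0.16 (R 4.3.3) fitted 12 group means over 36 libraries after filterByExpr and TMM, leaving 24 residual degrees of freedom. Contrasts were tested with quasi-likelihood F tests, checked on simulated data. SE is the log2 difference over the square root of F. DESeq2 1.42.0, other size factors, no filter, tissue and macrophage scores, animal numbers, left-out libraries and subsets were alternatives. The labels give mice per group, and p-values weigh a difference against the spread between libraries of a group. Members and gene lists were chosen with earlier results of these data known. The text names every member that passed a strain comparison, in full the 8 of smallest p, and up to 4 in the other direction. For treatments it names the 3 of smallest p, and for other lists up to 4.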

Additional observations from a re-analysis of the deposited data

How the results depend on the processing

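Over all strata the strain comparison called 35 of 40 genes, and 32 to 35 under the alternatives tried and 34 to 36 with 1 library left out. Counts within treatments moved more. Under vehicle, 21 called genes became 10 with 3 tissue scores as covariates, 11 with a macrophage score and 2 without the libraries rich in Rag1. Under valsartan, 32 became 5 without the libraries rich in Rag1. Under sacubitril/valsartan, 19 became 12 with 3 tissue scores and 1 without the libraries rich in Rag1. Fewer libraries were compared in the settings without Rag1, and the cause of the other changes was not tested. Leaving out 1 library gave 9 to 27 called genes under vehicle, 28 to 34 under valsartan and 9 to 23 under sacubitril/valsartan. Every treatment, schedule and interaction contrast called 0 members in all settings run. Without the libraries rich in Rag1, no 129X1 therapeutic valsartan library remained. Drug contrasts within 129X1 that use this group were not run. Averaged contrasts were run over the combinations that remained. Contrasts that use all 36 libraries have no fit on a subset. For single genes, 4238 values kept their side of the threshold, 245 lost it, 54 gained it and 0 reversed. The promoter count of 16 was 18 with the shifted spelling. No paired analysis was possible because the labels give groups no shared replicate numbers. Depth limited the low genes most, with Oas1g at 4 counts and Oas3 at 6 counts in their lowest libraries.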
